A study of Rattus norvegicus with 8 samples.

Results

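The miR-10 and miR-196 genes lie inside the Hox gene clusters, and their mature miRNAs were examined here in the rat striatum, a forebrain region. The members were chosen by name and are the 6 rows rno-miR-10a-5p, rno-miR-10a-3p, rno-miR-10b-5p, rno-miR-10b-3p, rno-miR-196a-5p and rno-miR-196b-5p, out of 752 mature miRNAs in the table. Small RNA libraries were made from striatal tissue of 8 rats, 4 that self-administered saline and 4 that self-administered methamphetamine (METH), with 1 library per rat. In self-administration, a rat receives an infusion through its own lever presses. The labels give both groups as WT, and the study's methods describe male Sprague-Dawley rats. Per those methods, the rats of both groups were first trained with food, and those that learned the task received a jugular catheter under pentobarbital anesthesia. From a larger number of rats, more of them on METH than on saline, 4 per group with steady lever pressing at the end were picked for plasma samples, and the methods do not say whether these are the sequenced rats. Rats that did not learn the task are not represented in either group. An age was not given in the sources used here.

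Hox genes encode transcription factors that set the identity of body segments along the head-to-tail axis, and the miRNAs between them are transcribed in similar domains. The miR-10 and miR-196 miRNAs are best known from hindbrain, spinal cord and trunk tissues, where they repress Hox transcripts among other targets. The forebrain lies in front of the region where Hox genes are patterned, and Hox-cluster miRNAs are typically scarce there. The miR-10 family also has members outside the Hox clusters, the miR-99/100 and miR-125 miRNAs, which are abundant in brain.

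All 6 members had an entry among the 693 mature miRNAs of RefSeq (assembly GRCr8). The mature sequences follow, 5′ to 3′, with the seed (bases 2 to 8, which lead the pairing with target transcripts) in capitals, because the seed shows which members could share targets.
rno-miR-10a-5p: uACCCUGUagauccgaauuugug
rno-miR-10b-5p: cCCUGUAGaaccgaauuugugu
rno-miR-10a-3p: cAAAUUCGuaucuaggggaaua
rno-miR-10b-3p: aCAGAUUCgauucuaggggaa
rno-miR-196a-5p: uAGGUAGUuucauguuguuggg
rno-miR-196b-5p: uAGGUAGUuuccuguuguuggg

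The miR-196 members differed by 1 base, A12C from miR-196a-5p to miR-196b-5p, counted from the 5′ end of miR-196a-5p. They shared the seed AGGUAGU with each other and, of the 693 mature miRNAs, with miR-196c-5p alone. The same 7 letters occur at bases 3 to 9 of let-7a-5p, 1 base later than in miR-196, so that let-7a-5p has another seed. Aligned to miR-10b-5p over 21 bases, miR-10a-5p differed at 1 base, U12A, counted from its own 5′ end. The annotated miR-10b-5p starts 2 bases further into this shared stretch, and its seed as annotated, CCUGUAG, therefore differs from ACCCUGU of miR-10a-5p. Both hairpins hold the bases UA at this place, and the stretches below show the annotated mature miRNA in capitals.
Mir10a: uauaUACCCUGUAGAUCCGAAUUUGUGua
Mir10b: uauauaCCCUGUAGAACCGAAUUUGUGUgg
Whether the sequenced miR-10b-5p molecules began at the annotated base was not tested, since the table holds counts and no reads.

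On GRCr8, each gene lay in a different Hox cluster. The miR-10a-5p sequence is at chr10:81779730-81779752 on the plus strand, and Mir10a lies between Hoxb5 and Hoxb4. The miR-10b-5p sequence is at chr3:80035886-80035907 on the plus strand, within the Hoxd4 gene. The miR-196a-5p sequence is at chr7:135988900-135988921 on the plus strand, and Mir196a lies between Hoxc10 and Hoxc9. The miR-196b-5p sequence is at chr4:82661149-82661170 on the minus strand, and Mir196b lies between Hoxa9 and Hoxa10. The reads had been aligned to rn6, and these coordinates are not those of that assembly.

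The total miRNA count per library ranged from 12929302 in METH rat 1 to 27632443 in saline rat 3. Levels are given as CPM (reads of a miRNA per 1000000 reads of its library), after multiplying each library total by its trimmed mean of M-values (TMM) factor. This factor was 0.766 in METH rat 4 and 0.959 to 1.15 in the other 7 libraries, and log2 fold changes without METH rat 4 are given beside those with it. Neuronal miRNAs (miR-124-3p, miR-9a-5p, miR-128-3p, miR-137-3p and miR-138-5p) summed to 278805 to 483539 CPM, and were thus abundant in every library, although these miRNAs do not tell the striatum from other brain regions. The rats are separate animals. In bulk tissue, fewer cells of a type and less of a miRNA per cell cannot be told apart.

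The Hox-cluster miRNAs made up a small part of every library, and 1 of them, miR-10a-5p, made up most of their counts. By level, miR-10a-5p ranked 272 of the 507 miRNAs that passed the low-count filter, near the middle, and the other members were lower. The 6 members together summed to 7.35 to 67.1 CPM per rat, with a median of 36.6 CPM. Of the members' counts, miR-10a-5p contributed 68.2% to 95.3% per rat. The products miR-10a-5p, miR-10b-5p, miR-196a-5p and miR-196b-5p were detected in all 8 rats, miR-10a-3p was detected in 6 rats, and miR-10b-3p in none. By total count over the 8 libraries, miR-10a-5p ranked 269 of 752, miR-196b-5p 466, miR-10b-5p 481, miR-196a-5p 482 and miR-10a-3p 560. The counts of miR-196b-5p were even in every library, and with them halved its total of 106 would be below the 161 of miR-10b-5p and the 147 of miR-196a-5p.

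**Figure D1:**
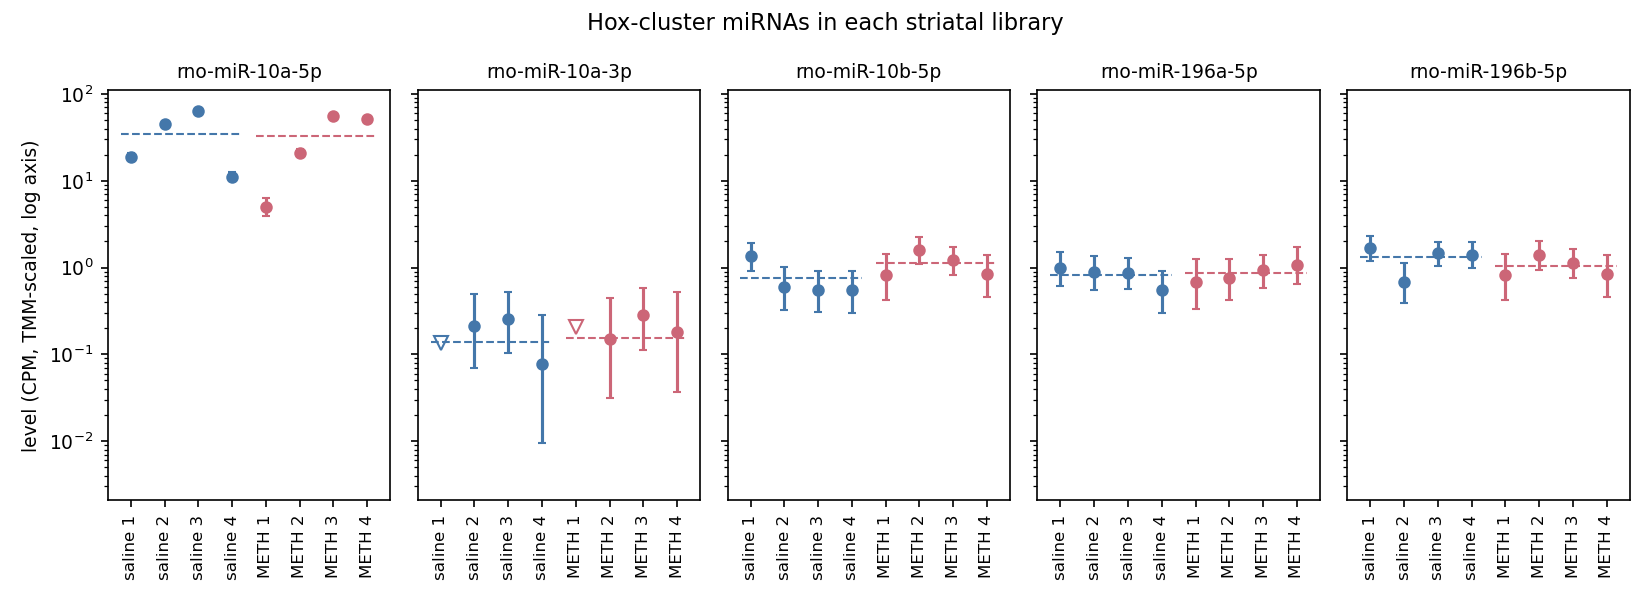
Level of the 5 detected members in each library, in CPM on a log axis, with saline rats in blue and METH rats in red. Bars are 95% Poisson intervals of the count, dashed lines are group means, and open triangles are the limit of 3 counts in libraries without a count; miR-10a-5p runs from 5.01 to 64.0 CPM, while the other members stay between 0.0782 and 1.70 CPM where detected.

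The most abundant member, miR-10a-5p, is encoded in the Hoxb cluster. Its counts were 424, 1065, 1754 and 286 in saline rats 1 to 4 and 73, 421, 1372 and 849 in METH rats 1 to 4. As levels, these were 19.0, 45.7, 64.0 and 11.2 CPM in the saline rats and 5.01, 21.2, 55.4 and 51.0 CPM in the METH rats. The lowest and the highest rat differed 12.8-fold, the lowest being METH rat 1 and the highest saline rat 3, and the groups overlapped over most of this range. Saline rats averaged 35.0 ± 24.3 CPM and METH rats 33.1 ± 24.1 CPM (SD, n = 4 each; two-sided exact permutation test over rats, p = 0.886). This test has 70 assignments, and the smallest p it allows is 0.0286. The log2 fold change in the edgeR quasi-likelihood test was -0.08 ± 0.71 (SE; 95% interval -1.66 to 1.51), with a Benjamini-Hochberg adjusted p of 0.985 over all miRNAs tested. Its estimate was 0.28 without METH rat 1, 0.40 without saline rat 3 and -0.34 without METH rat 4.

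The opposite strand of the same hairpin, miR-10a-3p, was found at a trace level. Its counts were 0, 5, 7 and 2 in saline rats 1 to 4 and 0, 3, 7 and 3 in METH rats 1 to 4. The libraries without a count were saline rat 1 and METH rat 1, in which 3 counts would correspond to 0.134 and 0.206 CPM. Summed over a group, the rate was 0.142 CPM (95% Poisson interval 0.0776 to 0.238) in the saline group and 0.171 CPM (0.0912 to 0.293) in the METH group. Such intervals and limits cover counting error only. The exact permutation test over rats gave a two-sided p of 0.943 (n = 4 per group). Of the counts from the mir-10a hairpin, 99.6% came from the 5p arm (6244 counts against 27; Wilson 95% interval 99.4% to 99.7%). The 5p share averaged 99.6 ± 0.289% in saline rats and 99.6 ± 0.299% in METH rats (SD, n = 4 each; two-sided exact permutation test, p = 1).

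In the Hoxd cluster, miR-10b-5p was far less abundant than its near-identical relative. Its counts were 30, 14, 15 and 14 in saline rats 1 to 4 and 12, 32, 30 and 14 in METH rats 1 to 4. The levels were 1.34, 0.601, 0.547 and 0.547 CPM in the saline rats and 0.824, 1.61, 1.21 and 0.841 CPM in the METH rats. Saline rats 2, 3 and 4 were below every METH rat, whereas saline rat 1 was above 3 of the 4 METH rats, so that the groups overlapped. Saline rats averaged 0.760 ± 0.391 CPM and METH rats 1.12 ± 0.372 CPM (SD, n = 4 each; two-sided exact permutation test, p = 0.2). The log2 fold change was 0.58 ± 0.40 (SE; 95% interval -0.31 to 1.47), with an adjusted p of 0.818 in the edgeR quasi-likelihood test. The estimate was 1.02 without saline rat 1 (adjusted p = 0.637 in the same test), 0.30 without METH rat 2 (adjusted p = 0.898), 0.42 without saline rat 4 and 0.69 without METH rat 4. At these counts a single library is imprecise, since the 95% Poisson interval was 0.907 to 1.92 CPM for saline rat 1 and 0.306 to 0.902 CPM for saline rat 3.

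The opposite strand, miR-10b-3p, had 0 counts in all 8 libraries. Over all libraries, 3 counts would correspond to 0.0172 CPM, and per library to 0.109 to 0.206 CPM. Against 161 counts of miR-10b-5p, a 3p share of up to 1.86% of the mir-10b hairpin would have gone undetected.

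The ratio of the miR-10 members was compared within libraries, where no scaling enters. The miR-10a-5p count exceeded that of miR-10b-5p 14.1-, 76.1-, 116.9- and 20.4-fold in saline rats 1 to 4 and 6.08-, 13.2-, 45.7- and 60.6-fold in METH rats 1 to 4. In every rat miR-10a-5p was thus higher, and the ratio was lowest in METH rat 1 and highest in saline rat 3, the same rats as for the miR-10a-5p level. The log2 ratio of miR-10b-5p to miR-10a-5p averaged -5.32 ± 1.47 in saline rats and -4.44 ± 1.55 in METH rats (SD, n = 4 each). The difference of 0.88 did not exceed the variation among rats (exact permutation test, two-sided p = 0.429). How the authors' counting assigned reads that match both miRNAs was not given in the sources used here.

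Encoded in the Hoxc cluster, miR-196a-5p varied least of the 4 members tested. It had 22, 21, 24 and 14 counts in saline rats 1 to 4 and 10, 15, 23 and 18 counts in METH rats 1 to 4. The levels were 0.986, 0.901, 0.875 and 0.547 CPM in the saline rats and 0.687, 0.755, 0.928 and 1.08 CPM in the METH rats. The lowest rat was saline rat 4 and the highest METH rat 4, and the other rats of both groups lay interleaved between them. The group means were 0.827 ± 0.193 CPM and 0.863 ± 0.177 CPM (SD, n = 4 each; two-sided exact permutation test, p = 0.83). The log2 fold change in the edgeR quasi-likelihood test was 0.07 ± 0.31 (SE; 95% interval -0.62 to 0.75; adjusted p = 0.978), and it was -0.091 with library totals in place of TMM and -0.045 without METH rat 4.

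The Hoxa member miR-196b-5p had 38, 16, 40 and 36 counts in saline rats 1 to 4 and 12, 28, 28 and 14 counts in METH rats 1 to 4. The levels were 1.70, 0.687, 1.46 and 1.41 CPM in the saline rats and 0.824, 1.41, 1.13 and 0.841 CPM in the METH rats. Saline rat 2 was the lowest of all 8 rats and saline rat 1 the highest, so that the saline range enclosed the METH range. The group means were 1.31 ± 0.438 CPM and 1.05 ± 0.277 CPM (SD, n = 4 each; two-sided exact permutation test, p = 0.371). The log2 fold change was -0.31 ± 0.35 (SE; 95% interval -1.09 to 0.47), with an adjusted p of 0.912 in the edgeR quasi-likelihood test, and -0.22 without METH rat 4. All 8 counts of miR-196b-5p were even numbers. This held for 35 of the 662 miRNAs with any count, and whether reads were entered at 2 places in these rows was not tested. Halved, the total of miR-196b-5p falls from 212 to 106 counts and its median level from 1.27 to 0.634 CPM.

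The remaining Hox-cluster miRNAs in the table were at or near 0. A single library, saline rat 4, had 2 counts of miR-196b-3p, and the other 7 libraries had none. No library had a count of miR-196a-3p, miR-196c-5p, miR-196c-3p or miR-615, which for each of them allows up to 0.0172 CPM over all libraries. The miR-196c gene lies between Hoxb13 and Hoxb9, in the cluster that also holds Mir10a, and its 5p product differs from miR-196a-5p by A12G.

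Of the 4 members that passed the low-count filter, 0 were called between METH and saline. The edgeR quasi-likelihood test called 0 of all 507 miRNAs at an adjusted p of 0.05 (0%), while 28 had an unadjusted p under 0.05, none of them a member. DESeq2 called 8 miRNAs (1.58%) and the exact test of edgeR called 6 (1.18%), and in both the members had adjusted p-values from 0.761 to 0.998. The ranges of the groups did not overlap for 16 miRNAs (3.16%), and overlapped for every member tested. The widths of the intervals differed between members. Log2 fold changes from -1.66 to 1.51 lay inside the interval of miR-10a-5p, whereas for miR-196a-5p the interval ran from -0.62 to 0.75.

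**Figure D2:**
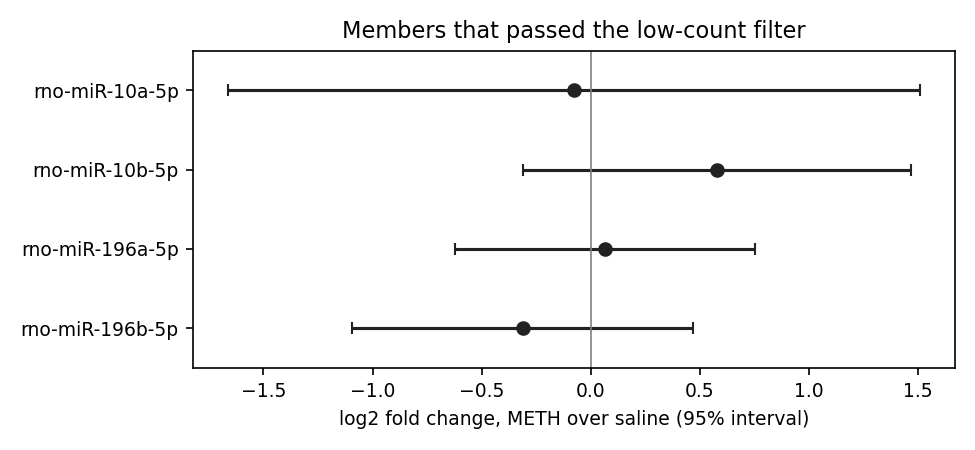
Log2 fold change of METH over saline for the 4 members tested, with the 95% interval from the edgeR quasi-likelihood fit (n = 4 rats per group). All 4 intervals include 0, and that of miR-10a-5p is the widest, from -1.66 to 1.51.

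The levels of the members were then placed in order by their median over the 8 rats, 33.4 CPM for miR-10a-5p, 1.27 CPM for miR-196b-5p, 0.888 CPM for miR-196a-5p and 0.832 CPM for miR-10b-5p. The mature products are 22 or 23 bases long, so levels were not divided by length. Whether the library preparation captured different miRNAs equally was not tested, so ratios between miRNAs are ratios of counts. Neighbours in this order were compared within rats by a two-sided exact test over 256 sign flips, adjusted over the 3 pairs. The miR-10a-5p level was 22.7-fold that of miR-196b-5p (95% interval 10.04 to 51.3), higher in 8 of 8 rats (adjusted exact p = 0.0234), and 45.4-fold (20.1 to 102.6) with the even counts of miR-196b-5p halved. The miR-196b-5p level was 1.36-fold that of miR-196a-5p (0.954 to 1.95), higher in 6 of 8 rats (adjusted exact p = 0.141). With these counts halved this ratio turned to 0.682 (0.477 to 0.975), and miR-196b-5p was higher in 1 of 8 rats (adjusted exact p = 0.0820). The miR-196a-5p level was 0.953-fold that of miR-10b-5p (0.673 to 1.35; adjusted exact p = 0.734). Neighbours among the 3 low members thus did not pass the exact test, although the interval of the ratio with halved counts lay below 1.

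The spread between rats set miR-10a-5p apart from the other members. Its tagwise dispersion, the squared variation between rats that edgeR estimates beyond counting error, was 0.475 and ranked 13 of 507, where the median was 0.123. The other members had dispersions of 0.140 (miR-10b-5p, rank 204), 0.113 (miR-196b-5p, rank 285) and 0.0874 (miR-196a-5p, rank 414). The coefficient of variation of the miR-10a-5p level over the 8 rats was 65.9%, while counting error alone would give 3.75%. For miR-196a-5p it was 20.4%, within the 23.8% of counting error. For miR-10b-5p and miR-196b-5p the values were 42.8% and 31.1%, against 22.6% and 20.1% from counting. With the even counts of miR-196b-5p halved, its counting error would be 28.4%, near its observed variation. Both groups held high and low rats of miR-10a-5p. The rank depended on single rats, since it was 29 without METH rat 1, 21 without saline rat 3 and 22 without saline rat 4.

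**Figure D3:**
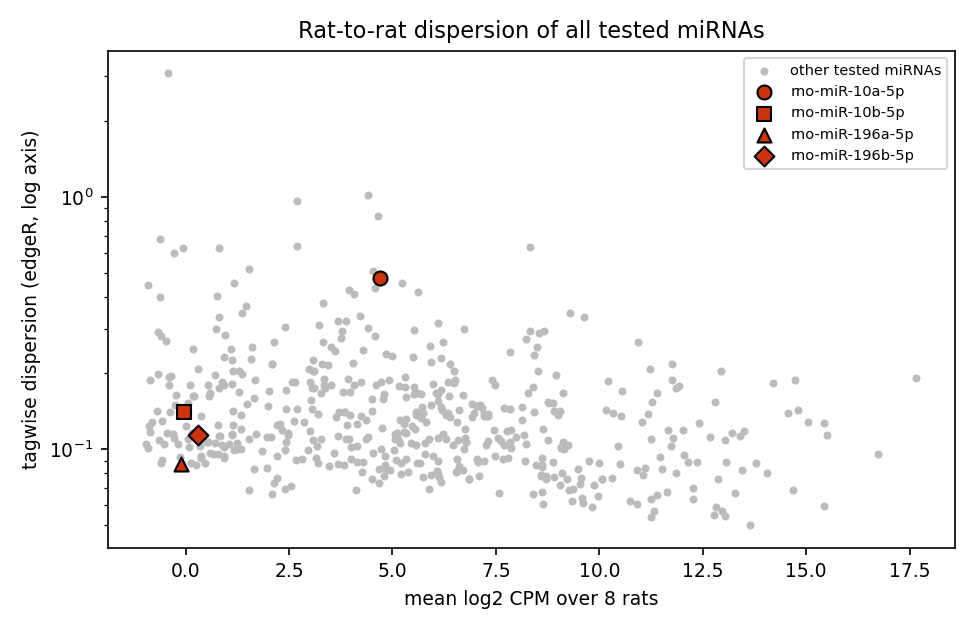
Tagwise dispersion between rats (log axis) against the mean log2 CPM over 8 rats for the 507 miRNAs tested, with the 4 members as red symbols. The miR-10a-5p circle, at a dispersion of 0.475, lies above most miRNAs of its level, while the other 3 members lie between 0.0874 and 0.140, where the median is 0.123.

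Members were also compared with each other over the 8 rats, as a description without a test, since all values come from the same 8 libraries. The log2 CPM of miR-10a-5p and miR-10b-5p had a Pearson correlation of -0.07 and a Spearman correlation of -0.14. Without the 2 rats farthest from the median of miR-10a-5p, the Pearson correlation was -0.75, so the value rests on those rats. For miR-10a-5p and miR-196a-5p the Pearson correlation was 0.71 and the Spearman correlation 0.52, and 0.28 was left without the 2 farthest rats. The miR-196 members, of the same seed, had a Pearson correlation of -0.17, and -0.31 without the 2 farthest rats.

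The 5 tested miRNAs with the profile most like that of miR-10a-5p were miR-345-3p (Pearson 0.886 over 8 rats), miR-150-3p (0.862), miR-344i (0.860), miR-128-2-5p (0.858) and miR-204-3p (0.797). All 5 were lowest in METH rat 1, the rat with the smallest library. Without that rat the correlations were 0.771, 0.676, 0.666, 0.663 and 0.478. Of these miRNAs, miR-128-2-5p varied most, from 6.11 to 51.9 CPM. None is a product of a Hox cluster. For miR-10b-5p the most alike were miR-191a-5p (0.866), miR-384-5p (0.773), miR-181a-2-3p (0.760), miR-128-3p (0.757) and miR-221-5p (0.704). Of these 5, 4 were highest in saline rat 1, whereas miR-10b-5p itself was highest in METH rat 2.

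**Figure D4:**
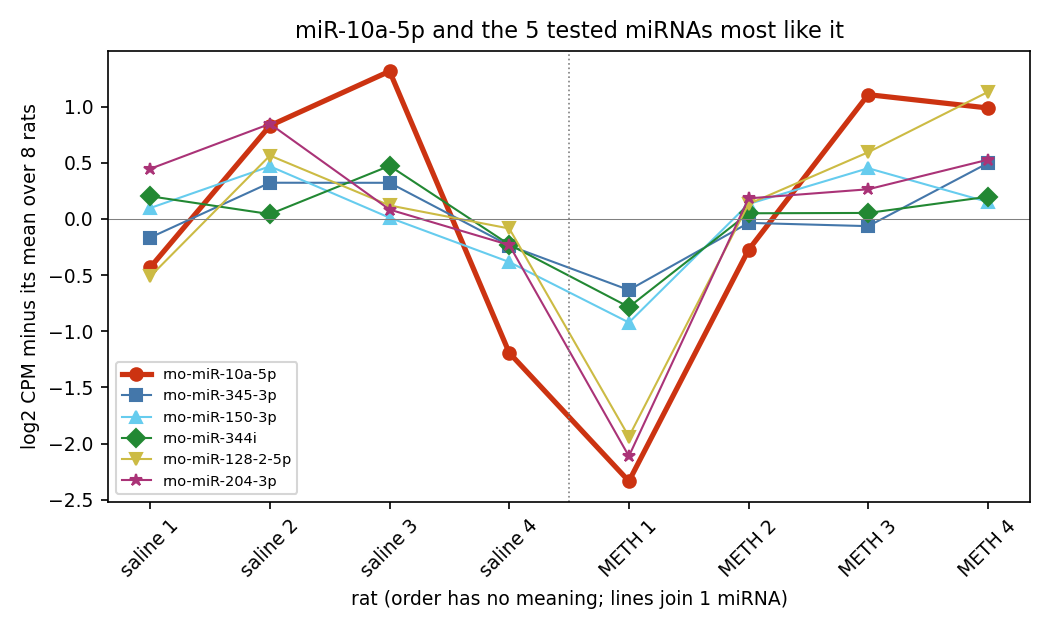
Log2 CPM of miR-10a-5p (thick red line) and of the 5 tested miRNAs with the highest Pearson correlation to it, each minus its own mean over the 8 rats, by rat. All 6 have their lowest point in METH rat 1, and miR-10a-5p spans the widest range.

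The members of the miR-10 family outside the Hox clusters were set beside miR-10a-5p. Of these, miR-100-5p is the closest in sequence for which an entry was found, and it is shown with miR-99b-5p because both carry the seed ACCCGUA.
rno-miR-100-5p: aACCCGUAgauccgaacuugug
rno-miR-99b-5p: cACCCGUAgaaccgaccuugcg
The edit distance from miR-10a-5p to miR-100-5p was 3, with 11 bases in common without a break (GUAGAUCCGAA). The level of miR-100-5p was 2938 CPM at the median. Within a rat it was 44.4- to 538-fold that of miR-10a-5p, and the median of these ratios was 114. The 5 miRNAs of this list (miR-99a-5p, miR-99b-5p, miR-100-5p, miR-125a-5p and miR-125b-5p) summed to 32536 to 41281 CPM, a 1.27-fold range over rats. Taken singly, their ranges over rats were 1.28-fold (miR-99a-5p), 2.7-fold (miR-99b-5p), 1.70-fold (miR-100-5p), 1.38-fold (miR-125a-5p) and 1.54-fold (miR-125b-5p), beside 12.8-fold for miR-10a-5p. The ratio of their sum to the miR-10a-5p level within a rat had a median of 1218. The most abundant was miR-99a-5p, with a median of 13012 CPM. Between METH and saline, 0 of the 5 were called by the edgeR quasi-likelihood test, DESeq2 or the edgeR exact test, and their median log2 fold change was 0.19, where that of all 507 was -0.02. Over the 8 rats, the log2 sum had a Pearson correlation of 0.19 with miR-10a-5p (Spearman -0.02), and -0.06 without METH rat 4.

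Marker miRNAs of other cell types and tissues were read in the same libraries, because tissue at the edge of a dissection can add miRNAs of its own. The oligodendrocyte list (miR-219a-5p, miR-219a-2-3p and miR-338-3p) summed to 2897 to 3191 CPM in the saline rats and 2334 to 4492 CPM in the METH rats, with a Pearson correlation of the sum with miR-10a-5p of 0.71 over 8 rats, and 0.72 without METH rat 4. Of its 3 miRNAs, miR-219a-2-3p, the most abundant, had a correlation of 0.59, while miR-219a-5p had -0.04 and miR-338-3p -0.09. The muscle list of 4 miRNAs summed to 50.1 to 70.1 CPM and 47.3 to 114.8 CPM, with a correlation of the sum of 0.59. Most of that sum was miR-206-3p (median 42.5 CPM), which had a correlation of 0.62, while miR-1-3p had -0.02, miR-133a-3p -0.42 and miR-133b-3p -0.22. Endothelium and vessel wall (10550 to 11214 and 11011 to 13885 CPM, 5 miRNAs) had a correlation of 0.08, which was -0.42 without METH rat 4. Leukocyte (1082 to 2099 and 693 to 2067 CPM, 5 miRNAs) had -0.03, and 0.28 without METH rat 4. Choroid plexus and ciliated epithelium (2906 to 3713 and 3040 to 7461 CPM, 6 miRNAs) had 0.26, and -0.16 without METH rat 4. Erythrocyte (403 to 644 and 342 to 2817 CPM, 3 miRNAs) had 0.36, and 0.21 without METH rat 4. Each sum from endothelium to erythrocyte was mostly 1 miRNA, in order miR-126a-3p (correlation 0.02), miR-150-5p (-0.03), miR-204-5p (0.28) and miR-451-5p (0.36). The less abundant leukocyte miRNAs had correlations of -0.49 to 0.36. The epithelium and pituitary list of 11 miRNAs summed to 216 to 297 CPM in the saline rats and 408 to 2537 CPM in the METH rats, so that the groups did not overlap, and its correlation with miR-10a-5p was 0.32, and 0.23 without METH rat 4. In the edgeR quasi-likelihood test 0 miRNAs of these lists were called, as over all miRNAs tested. The 8 calls of DESeq2 and the 6 of the edgeR exact test all fell in the epithelium and pituitary list of 11. The other lists held 0 calls. The study itself reported several miRNAs of the epithelium and pituitary list as raised in METH rats. This list was chosen with earlier results of these data known, so its group difference and the place of the calls are not independent results. Whether they reflect tissue at the edge of a dissection was not tested. No listed miRNA in the table was at 0 in all rats. These correlations are descriptions over 8 points that share library and depth, and the part of any of these cell types in the miR-10a-5p level was not tested.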

How the data were processed

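Per the labels and the study's methods, a gel-purified small RNA fraction was prepared for sequencing with a protocol in which each molecule carries a unique molecular identifier (UMI). The submitters' processing notes name Cutadapt 1.18, STAR 2.7.0e, featureCounts of Subread 1.6.4 and the assembly rn6. The deposited values are the authors' raw counts per mature miRNA, with no normalization. Whether reads with the same UMI were merged, the miRNA annotation release and the rule for reads with several alignments were not given in the sources used here. All 752 rows were read, and filterByExpr (minimum count 10) kept 507. Groups were compared with the edgeR 4.0.16 quasi-likelihood test (R 4.3.3, TMM factors, group as the only term, Benjamini-Hochberg adjustment over 507, threshold 0.05), checked on simulated counts. The study names edgeR without the test. Log2 CPM used a prior count of 2. Single values were compared by exact permutation tests (SciPy 1.17.1).

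Members and marker lists were chosen with earlier results of these data known. Named were the 6 members, the other Hox-cluster miRNAs, the 5 tested miRNAs with the highest Pearson correlation to miR-10a-5p and to miR-10b-5p, and of a list its most abundant miRNA or one set beside a member. The single miRNAs of the oligodendrocyte, muscle, and epithelium and pituitary lists, and the miRNAs that define a list, were named outside this rule, the former after their values were seen. Alternatives were other scalings, other filters, DESeq2 1.42.0, the edgeR exact test, limma 3.58.1 voom with quality weights, a replicate block, a pseudocount of 1 for arm shares and ratios, and leaving out each rat. Halving even-only counts, and leaving out rats for the order of levels and the dispersion, were added after seeing the data. Sequences and gene neighbours are from RefSeq (GRCr8), since no rn6 genome was used here.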

Additional observations from a re-analysis of the deposited data

Results flagged for a closer look

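In the saline group, the miR-10b-5p level of saline rat 1 stood apart from the other 3 rats. Its log2 CPM was 0.52, while the others lay between -0.65 and -0.53, and this gap took 0.900 of the group's range, above Dixon's critical value for 4 samples. It rests on 30 counts against 14, 15 and 14. In all, 14 groups of 4 values were examined, of which chance would set a rat apart in about 0.7 (1 in 20).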

How the results depend on the processing

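No member was called under any alternative run. The number of miRNAs called was 8 with DESeq2, 6 with the edgeR exact test, 0 to 5 with 1 rat left out (5 without METH rat 1), and 0 under the other settings. Rats with the same number in the titles were not alike, as the correlations of same-numbered deviations were -0.36 to -0.15. These values cannot show whether such rats shared a batch. With the number as a replicate block 0 miRNAs were called. The log2 fold changes with this block were -0.34 (miR-10a-5p), 0.63 (miR-10b-5p), 0.07 (miR-196a-5p) and -0.29 (miR-196b-5p). With 1 rat left out, the log2 fold change ranged from -0.50 to 0.40 for miR-10a-5p, 0.30 to 1.02 for miR-10b-5p, -0.12 to 0.20 for miR-196a-5p and -0.54 to -0.14 for miR-196b-5p. Library totals, which moved the median over all miRNAs to -0.12, turned miR-196a-5p to -0.091 and gave -0.30 for miR-10a-5p. Limma voom with quality weights gave 1.13 for miR-10b-5p (adjusted p = 0.109), where the other settings with all 8 rats gave 0.46 to 0.65, and it gave -0.42 for miR-10a-5p and -0.044 for miR-196b-5p. The correlation of miR-10a-5p with miR-10b-5p was -0.75 without the 2 farthest rats and -0.28 to 0.14 with 1 rat left out. With 1 rat left out, the difference in the mir-10a 5p share ranged from -0.133 to 0.128 percentage points (-0.259 with a pseudocount of 1 in each arm and all 8 rats, exact permutation p = 0.343), that in the log2 ratio of miR-10b-5p to miR-10a-5p from 0.27 to 1.38, that in the log2 summed level of the members from -0.60 to 0.44, the log2 ratio of miR-196a-5p to miR-10b-5p from -0.18 to 0.076 and the dispersion rank of miR-10a-5p from 11 to 29. Halving even counts turned the log2 ratio of miR-196b-5p to miR-196a-5p from 0.45 to -0.55. The cause of these shifts was not tested. With 10 to 40 counts per library, counting error alone gives a coefficient of variation of 20.1% to 23.8% (28.4% for miR-196b-5p with its even counts halved) for miR-10b-5p, miR-196a-5p and miR-196b-5p, against 20.4% to 42.8% observed over the 8 rats.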

Other observations

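The summed level of the members on the log2 scale averaged 4.99 ± 1.03 in saline rats and 4.79 ± 1.39 in METH rats (SD, n = 4 each). Without miR-10a-5p, the sum of the other members ran from 2.34 to 4.03 CPM over the 8 rats, and averaged 1.57 ± 0.335 in saline rats and 1.65 ± 0.330 in METH rats on the log2 scale (SD, n = 4 each). The other pairs of members gave Pearson correlations over 8 rats of -0.04 (miR-10a-5p and miR-196b-5p), 0.29 (miR-10b-5p and miR-196a-5p) and 0.32 (miR-10b-5p and miR-196b-5p), as descriptions without a test. Without the 2 rats farthest from the median of the first miRNA of a pair, they were -0.51, 0.41 and -0.24.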
